A study of Mus musculus with 16 samples.

Results

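The lysosomal cathepsins Ctsa, Ctsb, Ctsc, Ctsd, Ctsh, Ctsl, Ctss and Ctsz were followed in intact and injured intervertebral discs of mice. They were taken by gene symbol from the deposited table of TPM values (reads scaled by gene length and to a common library total), and all 8 were found among its 49315 genes. Cathepsins are proteases made as inactive precursors, tagged with mannose 6-phosphate, carried to the lysosome and activated there at acid pH. Most are cysteine proteases of the papain family, while Ctsd is an aspartic protease and Ctsa a serine carboxypeptidase. In cartilage and disc they are known for breaking down collagen and proteoglycan inside cells and, once secreted, for cutting matrix outside them.

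Bulk RNA was sequenced from 16 mice, with the tissue of 4 tail discs pooled per mouse, so each library stands for 1 mouse. The groups were wild-type mice with intact discs (n = 3), wild-type mice with injured discs (n = 4), Adam8EQ mutants with intact discs (n = 4) and Adam8EQ mutants with injured discs (n = 5). Adam8 is a metalloprotease of the cell surface. The title of the series sets the mutant against DBA, the name of an inbred strain. What the EQ allele changes, how and when discs were injured, and the age of the mice are not given in the sources used here. Adam8 transcript lay at 1.24 to 1.69 TPM in intact wild-type, 0.956 to 2.97 TPM in intact mutant, 3.52 to 66.3 TPM in injured wild-type and 16.2 to 264 TPM in injured mutant discs, which does not check the genotype labels, since the labels do not say whether the allele alters transcript level.

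Markers of the labelled tissue were present: the summed level of 8 disc and cartilage markers was 24409 to 33396 TPM in intact discs and 5202 to 23336 TPM in injured discs. The injured libraries differed among themselves. In injured wild-type mice 1 and 2 most cathepsins lay near their intact levels, and injured mutant mouse 2 lay above its group in 7 of the 8. The summed level of 12 macrophage markers was lowest of the injured wild-type mice in mice 1 and 2 and highest of all libraries in injured mutant mouse 2. It was 180.0 to 215 TPM in intact wild-type discs and 163 to 281 TPM in intact mutant discs. Injured wild-type mice 1 to 4 held 283, 443, 4146 and 2692 TPM, and injured mutants ran from 918 TPM in mouse 5 to 8429.7 TPM in mouse 2. In bulk libraries a change in the number of cells of a type and a change in RNA per cell cannot be told apart.

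The first question was what injury did to the cathepsins in each genotype. Changes are differences of mean log2(TPM + 1), tested with limma in 1 fit of all 16 libraries. A gene was called at a Benjamini-Hochberg adjusted p under 0.05 over the 24188 genes tested, which include all 8 cathepsins. In mutants 4 of the 8 rose with injury, namely Ctss, Ctsc, Ctsl and Ctsh, and 0 fell. Of all tested genes 30.8% were called in this comparison, 13.1% as higher and 17.7% as lower. The median change of the 8 was 0.86, against -0.08 over all tested genes. In the wild type 0 of the 8 passed in limma, and 0.116% of all tested genes did. There 2 of the 8 had an unadjusted p under 0.05, as did 4155 of all genes, and voom on reads implied by the TPM values also called 0 of the 8. The wild-type median was 0.45, against 0.01 over all genes, and all 8 estimates were above 0 in both genotypes, as were 50.98% of all tested genes in the wild type and 44.4% in mutants. That of Ctsa was near 0 and turned negative in each genotype when single mice were left out, to -0.02 in the wild type and -0.15 in mutants. Leaving out single mice moved the number called in mutants to between 2 and 5, and it was 2 without intact mutant mouse 2 and 2 without intact mutant mouse 4.

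**Figure D1:**
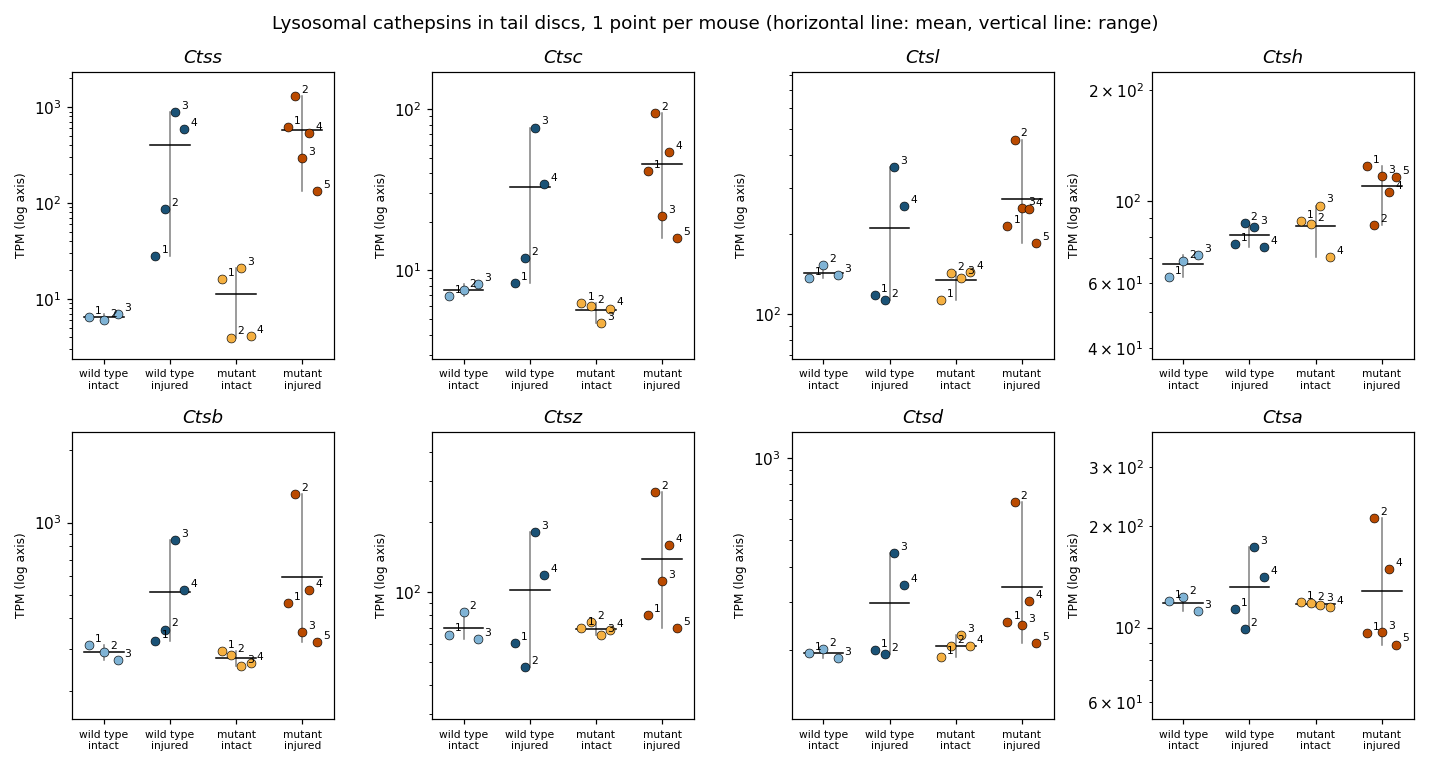
TPM of the 8 lysosomal cathepsins on log axes, 1 numbered point per mouse, by genotype and injury, with group means as horizontal lines and the range from lowest to highest mouse as vertical lines. The 7 mice with intact discs held 3.94 to 20.9 TPM of Ctss, below all 9 injured mice at 27.8 to 1298 TPM. Ctsa lay between 89.01 and 212 TPM in all 16 mice.

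Ctss (ENSMUSG00000038642, chromosome 3, 95526786 to 95556403, plus strand, GRCm38) encodes cathepsin S, a cysteine protease of antigen-presenting cells that trims the invariant chain of MHC class II and stays active at neutral pH. Intact wild-type mice 1 to 3 held 6.500, 6.02 and 6.85 TPM, and intact mutants 1 to 4 held 16.1, 3.94, 20.9 and 4.11 TPM. With injury, wild-type mice 1 to 4 held 27.8, 86.98, 893 and 588 TPM. Injured mutants 1 to 5 held 614, 1298, 294, 541 and 133 TPM. Injured and intact discs did not overlap in either genotype, and the injured wild-type mice spread 32.1-fold among themselves. The change in mutants was 5.49 (SE 0.89, limma adjusted p 0.00101). The wild-type change of 4.68 (SE 1.02, limma adjusted p 0.101) did not pass, whereas without injured wild-type mouse 1 it was 5.59 (limma adjusted p 0.0163). Intact levels rested on only 17 to 96 implied reads per library.

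Ctsc (ENSMUSG00000030560, chromosome 7, 88278085 to 88310888, plus strand) encodes cathepsin C, a dipeptidyl peptidase that activates serine proteases stored in the granules of neutrophils, mast cells and cytotoxic lymphocytes. Intact wild-type mice held 6.96, 7.52 and 8.28 TPM and intact mutants 6.27, 6.06, 4.73 and 5.81 TPM. Injured wild-type mice 1 to 4 held 8.38, 11.99, 76.8 and 34.1 TPM. Injured mutants 1 to 5 held 41.03, 94.3, 21.6, 53.9 and 15.9 TPM. Every injured mouse lay above every intact mouse, in the case of injured wild-type mouse 1 by little. Ctsc rose in mutants by 2.52 (SE 0.55, limma adjusted p 0.00446), and its wild-type change of 1.49 (SE 0.63, limma adjusted p 0.257) did not pass.

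Ctsl (ENSMUSG00000021477, chromosome 13, 64359337 to 64370890, minus strand) encodes cathepsin L, a broad endopeptidase. It lay at 137, 153 and 140.1 TPM in intact wild-type mice and 113, 142, 137 and 144 TPM in intact mutants. Injured mutants held 215, 456, 252, 249 and 186 TPM, all above the intact mutants. Injured wild-type mice held 118, 113, 359.9 and 257 TPM, of which mice 1 and 2 lay below and mice 3 and 4 above the intact wild type. Ctsl rose in mutants by 0.95 (SE 0.31, limma adjusted p 0.0328), against 0.39 (SE 0.36, limma adjusted p 0.585) in the wild type. The mutant call was lost without intact mutant mouse 1, 2, 3 or 4 and without injured mutant mouse 2 or 3, at limma adjusted p 0.0541 to 0.0844, and with no filter on low genes, at 0.0501.

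Ctsh (ENSMUSG00000032359, chromosome 9, 90054152 to 90076089, plus strand) encodes cathepsin H, a cysteine protease that acts mainly as an aminopeptidase. Intact wild-type mice held 62.3, 68.7 and 71.3 TPM and injured ones 76.7, 87.3, 85.1 and 74.97 TPM, without overlap. Intact mutants held 88.6, 86.8, 97.4 and 70.8 TPM and injured mutants 125, 86.04, 117, 106 and 117 TPM, which overlapped. Injured mutant mouse 2 was the lowest of its group in Ctsh and the highest in the other 7 cathepsins. Ctsh rose in mutants by 0.35 (SE 0.11, limma adjusted p 0.0293), and its wild-type change was 0.26 (SE 0.13, limma adjusted p 0.314). The mutant call was lost without intact mutant mouse 2 or 4 and without injured mutant mouse 1, 3 or 5, at limma adjusted p 0.0577 to 0.104, and when only the mutant groups were fitted, at 0.0669.

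Ctsb (ENSMUSG00000021939, chromosome 14, 63122462 to 63145923, plus strand) encodes cathepsin B, an endopeptidase that also removes dipeptides from the C-terminus. It had the highest TPM of the 8 in every intact mouse. Intact discs of both genotypes lay between 255 and 311 TPM. Injured wild-type mice held 323, 359.8, 847 and 525 TPM, and injured mutants 465, 1318, 352, 526 and 319 TPM. All 9 injured mice lay above all 7 intact mice. The change did not pass, at 0.91 (SE 0.35, limma adjusted p 0.0591) in mutants and 0.72 (SE 0.40, limma adjusted p 0.358) in the wild type. In mutants it passed with median-of-ratios scaling, with the library name prefix as covariate, and without injured wild-type mouse 3, injured mutant mouse 3 or injured mutant mouse 5, at limma adjusted p 0.0324 to 0.0473.

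Groups without overlap were therefore found in 4 of the 8 cathepsins for injury in the wild type (Ctss, Ctsc, Ctsb and Ctsh) and in 4 for injury in mutants (Ctss, Ctsc, Ctsb and Ctsl), always with injured discs higher. Of all tested genes, 9.22% in the wild type and 12% in mutants had injured discs wholly above intact discs.

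The remaining members did not pass for injury in either genotype. Ctsz (ENSMUSG00000016256, chromosome 2, 174427493 to 174439039, minus strand), which encodes the carboxypeptidase cathepsin Z, lay at 62.7 to 81.8 TPM in intact, 47.5 to 181 TPM in injured wild-type and 70.3 to 269.7 TPM in injured mutant discs. Ctsd (ENSMUSG00000007891, chromosome 7, 142375911 to 142388038, minus strand), which encodes the aspartic protease cathepsin D, lay at 187 to 227 TPM in intact, 194 to 450.4 TPM in injured wild-type and 212 to 688 TPM in injured mutant discs. In both genes the injured discs overlapped the intact discs and reached far above them. Ctsa (ENSMUSG00000017760, chromosome 2, 164832873 to 164841032, plus strand) encodes cathepsin A, which also shields beta-galactosidase and neuraminidase 1 in the lysosome. Its group means differed little, at 118 ± 5.92 TPM (SD, n = 3) in intact and 132 ± 32.8 TPM (SD, n = 4) in injured wild-type discs and 117 ± 1.95 TPM (SD, n = 4) in intact and 129 ± 52.4 TPM (SD, n = 5) in injured mutant discs. Changes in mutants were 0.80 (SE 0.39, limma adjusted p 0.129) for Ctsz, 0.57 (SE 0.30, limma adjusted p 0.173) for Ctsd and 0.05 (SE 0.22, limma adjusted p 0.89) for Ctsa. Those in the wild type were 0.34 (SE 0.44, limma adjusted p 0.708) for Ctsz, 0.52 (SE 0.35, limma adjusted p 0.444) for Ctsd and 0.12 (SE 0.25, limma adjusted p 0.826) for Ctsa.

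**Figure D2:**
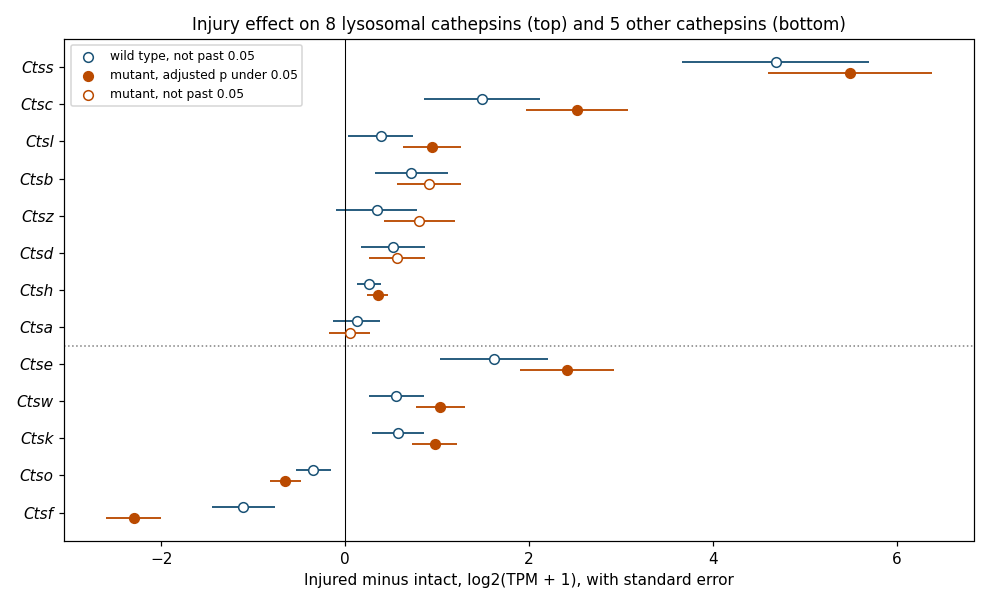
Injured minus intact difference of log2(TPM + 1), with its standard error, for the 8 lysosomal cathepsins and 5 other cathepsins in wild-type and mutant discs, filled where the limma adjusted p is under 0.05. In mutants Ctss stood at 5.49 and Ctsc at 2.52, while Ctsf stood at -2.303, and no wild-type point is filled.

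Libraries of mutants carry names that begin with A8 or with M, and those of the wild type begin with D. The labels do not say what the prefix marks, and between genotypes prefix and genotype cannot be told apart. The injury effect was recomputed with only mutants named A8 (2 intact and 2 injured mice) and with only those named M (2 intact and 3 injured mice). All wild-type libraries stayed in both fits and shared in the estimate of spread. Ctss changed by 6.61 (limma adjusted p 0.0213) among libraries named A8 and by 4.71 (limma adjusted p 0.0675) among those named M. For Ctsc the values were 3.14 (limma adjusted p 0.035) and 2.14 (limma adjusted p 0.13). Ctsl gave 1.296 (limma adjusted p 0.121) and 0.69 (limma adjusted p 0.326), and Ctsh 0.24 (limma adjusted p 0.356) and 0.44 (limma adjusted p 0.0939). All 4 genes kept their direction in both subsets, but they were picked as called in the fit of all these mutants, so this is no separate support. Of the 4, 2 were called among libraries named A8 and 0 among those named M, where 15.6% and 3.16% of all tested genes were called. Among the remaining members, Ctsa was at 0.27 with A8 and -0.091 with M, and Ctsb, Ctsd and Ctsz were above 0 in both.

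By group mean Ctss ran from intact wild type (6.46 ± 0.4204 TPM, SD, n = 3) through intact mutant (11.3 ± 8.58 TPM, SD, n = 4) and injured wild type (399 ± 414 TPM, SD, n = 4) to injured mutant (576 ± 447 TPM, SD, n = 5). The intact groups overlapped, as did the injured groups. Intact groups held the lower and injured groups the higher means in 7 of the 8 cathepsins. Ctsh differed, since intact mutants (85.9 ± 11.1 TPM, SD, n = 4) had a higher mean than injured wild-type mice (81.02 ± 6.102 TPM, SD, n = 4), with overlap. In Ctsc the intact groups did not overlap, and intact mutants (5.72 ± 0.684 TPM, SD, n = 4) lay below the intact wild type (7.59 ± 0.665 TPM, SD, n = 3). Of all tested genes 3.41% had intact mutants wholly below the intact wild type.

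The make-up of the cathepsin transcripts is given without a test. The summed level of the 8 was 856 to 932 TPM in the 7 intact mice. It was 928, 999.6, 3067 and 2084 TPM in injured wild-type mice 1 to 4 and 1889, 4423, 1493, 2084 and 1141 TPM in injured mutants 1 to 5, so that injured wild-type mouse 1 lay within the intact range and the other 8 injured mice above it. Ctss made up 0.645% to 0.801% of this sum in intact wild-type discs, 0.427% to 2.26% in intact mutant discs, 2.998% to 29.1% in injured wild-type discs and 11.6% to 32.5% in injured mutant discs. Ctsb held the largest share in every intact mouse, at 27.6% to 34.4%. The share of Ctsa was 12.7% to 13.3% in intact mutants and 4.796% to 7.803% in injured mutants, although its own level overlapped between them. These are shares of RNA and not of enzyme.

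**Figure D3:**
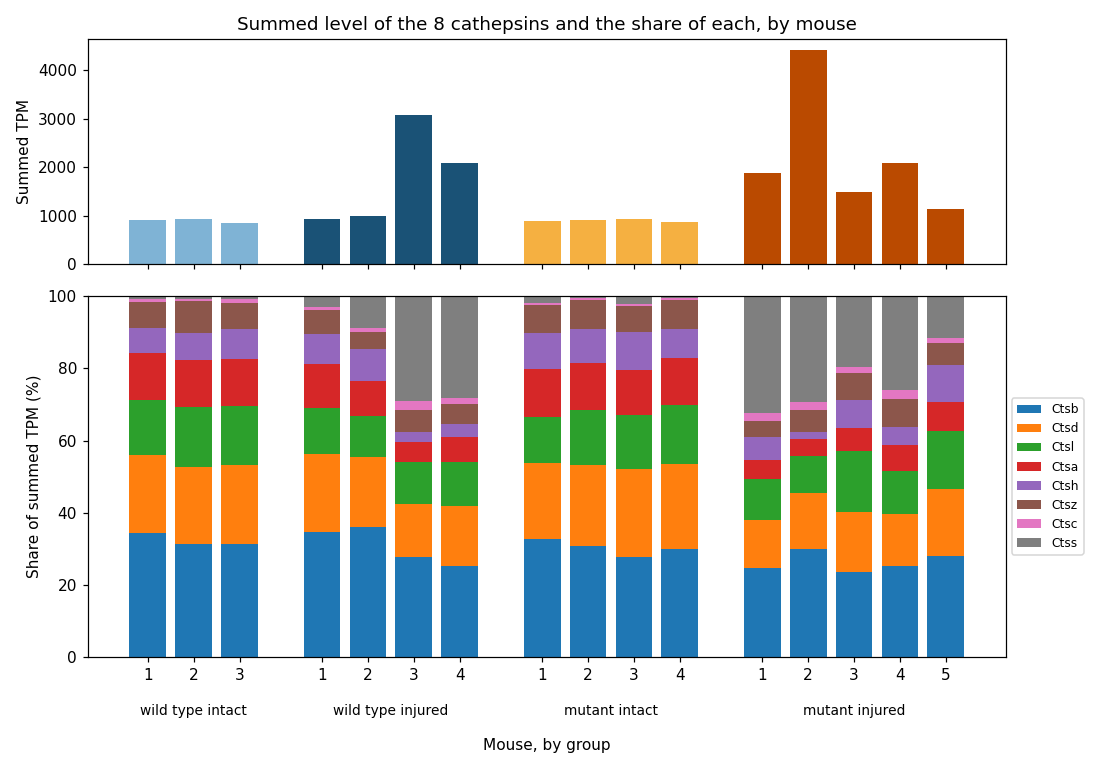
Summed TPM of the 8 cathepsins (upper bars) and the share of each in that sum in percent (lower stacked bars), 1 bar per mouse. Injured mutant mouse 2 had the highest sum at 4423 TPM, and Ctss took up to 32.5% of the sum in injured mutants.

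The next comparison was between genotypes. In intact discs 0 of the 8 cathepsins differed between mutants and wild type in limma, and 0.0165% of all tested genes did. At an unadjusted p under 0.05 there was 1 of the 8, Ctsh, beside 915 of all genes, and voom called 0 of the 8. Estimates ran from -0.36 for Ctsc to 0.40 for Ctss. In injured discs 0 of the 8 passed in limma, and 0.918% of all tested genes did. At an unadjusted p under 0.05 there was again Ctsh alone, beside 4912 of all genes, and voom called 0 of the 8. In injured discs 7 of the 8 estimates were above 0, as were 39.1% of all tested genes, with Ctss at 1.21 (SE 0.89, limma adjusted p 0.467). The Ctss estimate rested on single mice, at 0.30 without injured wild-type mouse 1 and 1.96 without injured wild-type mouse 3. The sign of Ctsa, Ctsb and Ctsd between injured genotypes turned with the processing or with single mice.

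Ctsh was the member nearest to a genotype difference. Mutants were at 0.34 (SE 0.13, limma adjusted p 1) relative to wild type in intact discs and at 0.43 (SE 0.11, limma adjusted p 0.0755) in injured discs. In injured discs 4 of the 5 mutants lay above all 4 wild-type mice, and in intact discs 3 of the 4 mutants lay above all 3. The injured difference passed without injured mutant mouse 2, at 0.51 (limma adjusted p 0.0185), without injured wild-type mouse 3, at 0.45 (limma adjusted p 0.0397), and with sample weights, at 0.47 (limma adjusted p 0.036).

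Whether injury acted differently in the genotypes was tested as an interaction, in which limma called 0 of the 8 cathepsins and 0% of all tested genes. At an unadjusted p under 0.05 there were 0 of the 8 and 1979 of all genes, and voom called 0 of the 8. The largest estimate was that of Ctsc, whose change was larger in mutants by 1.04 (SE 0.84, limma adjusted p 0.774), followed by Ctss at 0.81 (SE 1.36, limma adjusted p 0.892). A call in mutants without one in the wild type is thus not shown to be a difference between them. The genotype and interaction contrasts share libraries with the injury contrasts.

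Genes around the members were read from lists of the pathway. Counts in these and the later lists stand against the share of all tested genes called. For injury in mutants that share was 13.1% higher and 17.7% lower, and for injury in the wild type 0.116% in all. The other cathepsins came first. Of 5 tested, 3 rose with injury in mutants and 2 fell, and 0 passed in the wild type. Ctsf, a widely expressed papain-family cathepsin, lay at 142, 146, 112 and 112 TPM in intact mutants and 12.7, 31.7, 20.5, 37.8 and 30.3 TPM in injured mutants. Wild-type mice held 114, 129.7 and 104 TPM when intact and 80.1, 70.7, 28.5 and 48.8 TPM when injured. All 9 injured mice lay below all 7 intact mice. The share of all tested genes with injured discs wholly below intact discs is not given here, so this is not read as particular to Ctsf. In mutants Ctsf fell by 2.303 (SE 0.30, limma adjusted p 0.00041), and its wild-type change was -1.11 (SE 0.34, limma adjusted p 0.164). In mutants Ctso fell by 0.65 (SE 0.17, limma adjusted p 0.0097). Ctsk, the collagen-cutting cathepsin best known from osteoclasts, rose by 0.97 (SE 0.25, limma adjusted p 0.00926) and averaged 80.99 ± 6.99 TPM (SD, n = 4) in intact against 163 ± 39.96 TPM (SD, n = 5) in injured mutants. Ctse, an aspartic cathepsin, rose by 2.41 (SE 0.52, limma adjusted p 0.00398) from at most 0.373 TPM, and Ctsw, known from cytotoxic lymphocytes, by 1.03 (SE 0.27, limma adjusted p 0.01). Ctsg, a neutrophil granule protease, was listed at 0 except in injured mutant mouse 4. Ctso and Ctsw were named after their values were seen.

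Cystatins inhibit cysteine cathepsins. Of 5 tested, 1 rose and 1 fell with injury in mutants, where 13.1% of all tested genes were called higher and 17.7% lower. In the wild type 0 of the 5 passed. Cst3, the secreted cystatin C, fell by 1.88 (SE 0.34, limma adjusted p 0.00164) in mutants and averaged 4449 ± 897 TPM (SD, n = 4) in intact against 1306 ± 609 TPM (SD, n = 5) in injured mutants. In wild-type discs it was 3881 ± 179 TPM (SD, n = 3) when intact and 2119 ± 684 TPM (SD, n = 4) when injured, a change of -0.94 (SE 0.39, limma adjusted p 0.248). Cst3 alone thus exceeded the summed cathepsins in every intact mouse, while in injured mutants its range of 615 to 2129.9 TPM overlapped theirs. Cstb, the cystatin of the cytosol, rose by 1.095 (SE 0.33, limma adjusted p 0.021), and Stfa3, a mouse stefin, was at 1.002 (SE 0.51, limma adjusted p 0.147). Without intact mutant mouse 1 only 1 cystatin was called.

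Other lysosomal hydrolases moved in both directions. Of 20 tested, 4 rose and 4 fell with injury in mutants, with a median change of -0.0038. Of all tested genes 13.1% were called higher and 17.7% lower. The counts of this list and of the lists of membrane proteins and sorting are near that share and are not read as particular to them. Ppt1, which removes palmitate from proteins, fell by 0.68 (SE 0.11, limma adjusted p 0.000829), Naglu, which degrades heparan sulfate, by 0.41 (SE 0.11, limma adjusted p 0.0106), and Gaa, which degrades glycogen, by 0.51 (SE 0.14, limma adjusted p 0.0114). Of 8 genes of lysosomal membrane proteins and activators 2 rose and 1 fell. Npc1 and Npc2, which export cholesterol, rose by 0.51 (SE 0.10, limma adjusted p 0.00228) and 0.55 (SE 0.15, limma adjusted p 0.0154), and Scarb2, a membrane protein that carries glucocerebrosidase, fell by 0.42 (SE 0.11, limma adjusted p 0.0134). Of 6 genes of mannose 6-phosphate sorting 1 rose and 1 fell. M6pr, a receptor for the tag, rose by 0.31 (SE 0.09, limma adjusted p 0.0202), Sort1, the alternative sorting receptor sortilin, fell by 1.46 (SE 0.33, limma adjusted p 0.00536), and Nagpa, which uncovers the tag, was at 0.42 (SE 0.20, limma adjusted p 0.12). In the wild type 0 genes of these lists passed. In mutants 5 hydrolases were called in all without intact mutant mouse 1, 2 or 4 or injured mutant mouse 2, and 1 sorting gene without intact mutant mouse 1 or 3.

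The vacuolar proton pump acidifies the lysosome, on which cathepsin maturation depends. Of its 16 genes 7 rose and 0 fell with injury in mutants, and 0 passed in the wild type, or 1 without injured wild-type mouse 1. Atp6ap2, an accessory subunit, rose by 0.90 (SE 0.13, limma adjusted p 0.000695), Atp6v0d2, a subunit of macrophages and osteoclasts, by 2.26 (SE 0.43, limma adjusted p 0.00202), and Atp6v1g1 by 0.37 (SE 0.07, limma adjusted p 0.00198). Between injured genotypes 3 of the 16 were higher in mutants, Atp6ap2 by 0.62 (SE 0.13, limma adjusted p 0.0475), Atp6v1e1 by 0.54 (SE 0.12, limma adjusted p 0.049) and Atp6v1g1 by 0.32 (SE 0.07, limma adjusted p 0.0487). That count was 0 or 1 under 21 of 29 alternatives, and 0.918% of all tested genes were called in the main fit. Of the 4 MiT/TFE transcription factors, which drive lysosomal genes, Tfe3 rose with injury in mutants by 0.77 (SE 0.15, limma adjusted p 0.00269), Tfec rose by 1.84 (SE 0.38, limma adjusted p 0.00354) and Mitf fell by 0.52 (SE 0.17, limma adjusted p 0.0305), and 0 passed in the wild type.

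Partners and substrates of the cathepsins that rose were read in the same way. All 7 genes of MHC class II presentation, the pathway in which cathepsin S acts, rose with injury in mutants, and 0 passed in the wild type, or 2 without injured wild-type mouse 1. The invariant chain gene Cd74 rose by 4.19 (SE 0.87, limma adjusted p 0.00334), H2-Aa by 4.82 (SE 0.83, limma adjusted p 0.00126) and H2-DMa by 1.21 (SE 0.29, limma adjusted p 0.00734). Of 7 serine proteases that cathepsin C activates only 3 passed the filter on low values, and 0 were called in either genotype, with Cma1 at 0.61 (SE 0.52, limma adjusted p 0.402), Mcpt4 at 0.69 (SE 0.66, limma adjusted p 0.456) and Elane at -0.29 (SE 0.27, limma adjusted p 0.448) in mutants. Their summed level was 0 to 4.904 TPM in intact and 0.309 to 22.8 TPM in injured discs.

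Markers of other cell types were read as well, and their part in the cathepsin changes was not tested. In mutants 11 of 12 macrophage markers rose with injury, with Lyz2 at 5.63 (SE 0.93, limma adjusted p 0.00107), Cd14 at 2.99 (SE 0.52, limma adjusted p 0.00143) and Itgam at 3.62 (SE 0.67, limma adjusted p 0.00182). Of the 12, 0 passed for wild-type injury, and 4 did without injured wild-type mouse 1. Ctss per TPM of the summed macrophage markers was 0.0287 to 0.0381 in intact and 0.0983 to 0.219 in injured wild-type discs, and 0.0232 to 0.0744 in intact and 0.145 to 0.273 in injured mutant discs. This ratio to the summed markers was therefore higher in injured discs, without overlap. It depends on the markers summed. Csf1r, Cd68 and Cd14 averaged 53.6, 55.2 and 34.2 TPM in intact mutants, against 29.0 TPM for Lyz2. Lyz2 changed by 5.63 in mutants, against 5.49 for Ctss. In the wild type no macrophage marker changed by more than 3.73, against 4.68 for Ctss. Whether Ctss rose beyond the macrophage content was not tested. For the other 7 members, Ctsc, Ctsl and Ctsh among them, the mean of the ratio to the summed markers was lower in injured than in intact discs of both genotypes. In mutants it was 0.0169 to 0.0357 in intact and 0.0112 to 0.0188 in injured discs for Ctsc, 0.4896 to 0.8800 and 0.0541 to 0.202 for Ctsl, 0.347 to 0.512 and 0.0102 to 0.127 for Ctsh, and 0.807 to 1.26 and 0.0816 to 0.2305 for Ctsd. Of 5 tested neutrophil markers 3 rose in mutants, S100a8 by 4.34 (SE 1.204, limma adjusted p 0.0147), S100a9 by 4.21 (SE 1.29, limma adjusted p 0.0237) and Cxcr2 by 2.598 (SE 0.92, limma adjusted p 0.0432). Only 1 was called without intact mutant mouse 2 or 4. Changes of the 5 ran from -0.29 to 4.34, and Camp averaged 6.36 TPM in intact and 5.66 TPM in injured mutants. The summed level of all 8 listed was 5.31 to 15.8 TPM in intact, 7.74 to 104 TPM in injured wild-type and 11.4 to 665 TPM in injured mutant discs. Mpo was listed at 0 in every mouse of the other groups, and in injured mutants its median was 0 and its highest value 0.43 TPM. Of 6 osteoclast markers 2 passed the filter and 0 were called, with Acp5 at 1.91 (SE 0.70, limma adjusted p 0.051) and Mmp9 at 2.26 (SE 0.97, limma adjusted p 0.0915), and under 11 of 29 alternatives 1 or 2 were.

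Some disc markers fell in mutants. Of 8 disc and cartilage markers 3 fell with injury, Comp by 2.54 (SE 0.47, limma adjusted p 0.00185), Chad by 2.71 (SE 0.55, limma adjusted p 0.00305) and Cnmd by 3.22 (SE 0.70, limma adjusted p 0.00441). Of all tested genes 17.7% were called lower. Changes of the 8 ran from -3.22 to 0.58, with a median of -0.34, and 0 were called higher. Sox9 averaged 482 TPM in intact and 751 TPM in injured mutants. Of 6 tested notochordal markers 4 fell, among them T by 3.15 (SE 0.91, limma adjusted p 0.0178), Krt8 by 2.56 (SE 0.81, limma adjusted p 0.0277) and Krt19 by 3.03 (SE 0.999, limma adjusted p 0.0329), and that count was 1 without intact mutant mouse 1, 2 or 4 or injured mutant mouse 3. Of 5 tested skeletal muscle markers 0 were called, with Ckm at -0.48 (SE 0.79, limma adjusted p 0.68). In the wild type 0 genes of these 3 lists passed. Which cells a cathepsin transcript came from was not tested.

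**Figure D4:**
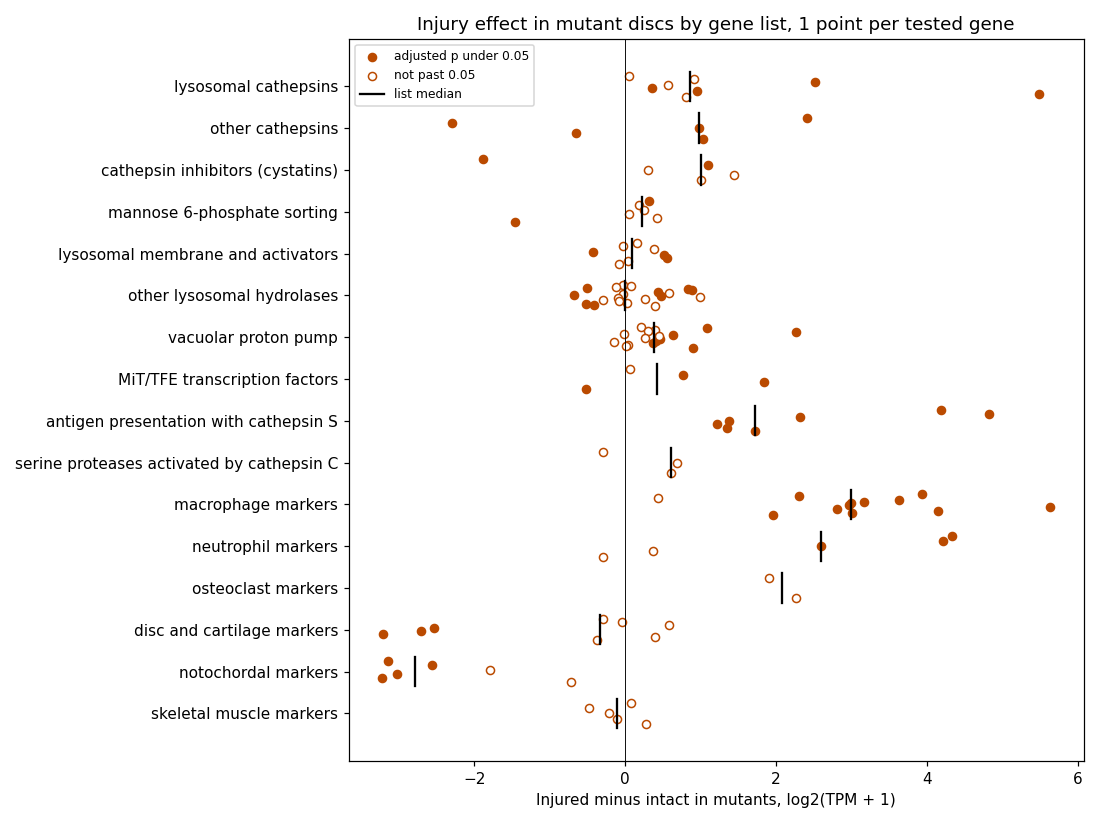
Injured minus intact difference of log2(TPM + 1) in mutants for each tested gene of the 8 cathepsins and of the other lists, filled where the limma adjusted p is under 0.05, with a bar at the median of each list. The cathepsin median lay at 0.86, below the macrophage median of 2.996 and above the -0.0038 of the other lysosomal hydrolases.

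The genes whose profiles over the 16 libraries were most like each member were found by the root mean square difference of log2(TPM + 1), with each gene centred on its own mean, among 11929 genes. Ctss was nearest to Lyz2 (0.434) and Tyrobp (0.522), against a spread of 2.88 around its own mean. Ctsc was nearest to Cotl1 (0.219) and Tm6sf1 (0.2597), against a spread of 1.32. Each named gene was picked as nearest among the 11929, so a small distance follows in part from the choice. Ctsb was nearest to Msrb1 (0.129) and Tcirg1 (0.141), Ctsd to Rnf149 (0.134) and Rassf5 (0.1397), Ctsl to Ftl1 (0.176) and Actg1 (0.188), and Ctsz to Sirpa (0.2204) and Ftl1 (0.222). Ctsa was nearest to Psap (0.105) and Tnfsf12 (0.134), against a spread of 0.312, and Ctsh to Reep3 (0.141), against a spread of 0.286.

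Promoters are shown for Ctss and Ctsc, which rose most, and for Ctsd and Ctsa, whose changes did not pass. Windows of 300 bases, from 250 before to 50 after a start site, came from RefSeq on GRCm38.p6, where 6 of the 8 members have 7 windows. Ctsb and Ctsh have no entry. The windows were searched on both strands for CACGTG, the E-box bound by MiT/TFE factors among others, for TCACGTG, a longer form that contains it, and for GAGGAA, a core bound by ETS factors such as PU.1. Capitals mark matches.

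Ctss, chr3:95526536-95526835, plus strand: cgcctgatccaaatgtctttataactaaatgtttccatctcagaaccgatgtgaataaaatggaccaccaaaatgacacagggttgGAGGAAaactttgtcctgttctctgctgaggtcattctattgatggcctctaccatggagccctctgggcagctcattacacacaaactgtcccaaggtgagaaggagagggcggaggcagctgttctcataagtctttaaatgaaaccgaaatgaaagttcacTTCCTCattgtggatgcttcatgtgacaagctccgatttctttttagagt
Ctsc, chr7:88277835-88278134, plus strand: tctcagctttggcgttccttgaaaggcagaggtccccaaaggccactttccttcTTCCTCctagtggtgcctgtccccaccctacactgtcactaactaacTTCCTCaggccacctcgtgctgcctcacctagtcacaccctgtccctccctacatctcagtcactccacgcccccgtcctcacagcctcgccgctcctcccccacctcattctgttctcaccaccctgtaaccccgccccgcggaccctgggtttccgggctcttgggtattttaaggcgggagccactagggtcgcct
Ctsd, chr7:142387778-142388077, minus strand: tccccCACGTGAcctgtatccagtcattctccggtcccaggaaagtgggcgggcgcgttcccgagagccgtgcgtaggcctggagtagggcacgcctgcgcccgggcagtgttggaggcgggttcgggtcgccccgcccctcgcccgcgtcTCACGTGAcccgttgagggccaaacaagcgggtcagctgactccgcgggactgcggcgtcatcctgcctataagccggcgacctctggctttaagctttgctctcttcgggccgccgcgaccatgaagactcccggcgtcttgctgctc
Ctsa, chr2:164833523-164833822, plus strand: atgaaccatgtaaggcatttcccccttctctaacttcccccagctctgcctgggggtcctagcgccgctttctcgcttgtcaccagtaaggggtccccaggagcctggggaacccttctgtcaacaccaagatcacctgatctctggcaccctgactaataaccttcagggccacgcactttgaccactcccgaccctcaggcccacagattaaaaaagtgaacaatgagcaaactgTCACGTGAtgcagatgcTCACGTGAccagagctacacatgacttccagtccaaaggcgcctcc

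Positions count from the first transcribed base, taken as 0. Ctss held GAGGAA or its reverse complement at -164 and at 0, and Ctsc at -196 and -149, and neither held CACGTG. Ctsd held CACGTG at -245 and -98, and the Ctsa window shown held it at -12 and at 5, each within the longer form on 1 strand or both, and neither held GAGGAA. The other window of Ctsa and that of Ctsz held none of these, and Ctsl held CACGTG alone, at -236. Of the 7 windows of members 3 held CACGTG, 2 TCACGTG and 2 GAGGAA. Of 32851 RefSeq windows of this length 7.15% held CACGTG, 3.77% TCACGTG and 28.3% GAGGAA. The member count for GAGGAA is near that share and is not read as particular to the members. A match describes letters of the window and not a bound site.

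Several members overlap other genes in GENCODE M21. On the opposite strand Ctsa overlaps Neurl2 and Pltp, Ctsb overlaps Fdft1, Ctsc overlaps Gm26522, Ctsz overlaps Nelfcd and Ctsl overlaps Gm47123. On the same strand Ctsd overlaps Gm49369, Ctsl overlaps Gm49230 and Ctss overlaps Hmgb1-ps5. Ctsh overlaps no other gene. The use of strand in counting is not given in the sources used here, so reads of such partners cannot be told apart.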

How the data were processed

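The authors deposited TPM values per gene and mouse, which sum to 1000000 in each of the 16 libraries. Per the labels' protocols, total RNA was depleted of ribosomal RNA before library preparation, whereas the molecule field of the labels names polyA RNA. The genotype field of the wild-type mice reads only "type", so titles gave their genotype. The submitters' processing notes name GRCm38 and bcl2fastq 2.20, and the aligner, counting and strand are not given in the sources used here.

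Columns were matched to mice by library name. Members and gene lists were chosen with earlier results of these data known. Positions and exon lengths came from GENCODE M21, which holds 48970 of the identifiers. Reads implied by TPM and exon length were 10194312 to 24817021 per library, with 94.1% to 95.0% of values under 20 reads within 0.05 of a whole number. They are approximate.

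Genes of 1 TPM or more in 3 or more libraries entered limma 3.58.1 in R 4.3.3 on log2(TPM + 1), with a mean per group, a trend in eBayes and 5 contrasts. The fold changes understate those of low genes. Simulated data for injury in mutants (24188 genes) gave back 35% of changes of 1 and 74% of changes of 2 on the log2 scale, with 6 false calls. Only 100 genes were changed per size there, against 7438 genes called in the data. These rates therefore do not measure how often the test on the data finds such changes. From each list the 3 genes of smallest adjusted p for injury in mutants were named, any called in another contrast, and for each member the 2 most similar genes averaging 5 TPM or more. For Ctsh 1 of these is not reported here. Alternatives changed the pseudocount (0.1), the filter (none, or a mean of 5 TPM), the scaling (median-of-ratios or quantile), the trend, sample weights, the groups fitted, a replicate block and the library name prefix (as covariate or as subset), and left out each mouse in turn. Voom on the implied reads was added after seeing the data. Python 3.11.15 made the summaries.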

Additional observations from a re-analysis of the deposited data

Results flagged for a closer look

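In 3 cathepsins 1 mouse stood far from the others of its group, by the gap to its nearest neighbour over the range of the group. Each time it was injured mutant mouse 2, with Ctsb at 1318 TPM, Ctsd at 688.2 TPM and Ctsl at 456.2 TPM. The gap took 0.792, 0.814 and 0.754 of the range, against a critical value of 0.71 for 5 mice. Of 42 groups of mice looked at 3 were flagged, where chance gives about 1 in 20, so the number of flags is not read as unusual. The rule was applied to TPM without logs, and the intact wild type, with 3 mice, was not looked at. All flags are of 1 mouse and are not independent. The same mouse had the highest summed macrophage markers (8429.7 TPM) and neutrophil markers (665 TPM) of the 16 libraries, and their part in these values was not tested.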

How the results depend on the processing

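The rises of Ctss, Ctsc, Ctsl and Ctsh with injury in mutants kept their direction under all 29 alternatives, at 4.71 to 6.61, 2.14 to 3.14, 0.69 to 1.296 and 0.24 to 0.44, and their calls were lost in 1, 1, 9 and 9 of them. Many of these alternatives could not move the estimates. Leaving out wild-type mice, changing the filter or the trend, or fitting only the groups compared can alter only the adjusted p. The 4 genes were also picked by their calls in the main fit. The number of cathepsins called for injury in mutants was 4, but 0 with only mutants named M, 2 with only those named A8 and 2 to 5 without single mice. For injury in the wild type it was 0, and 0 to 1 without single mice, Ctss being called without injured wild-type mouse 1. Between injured genotypes it was 0, but 1 with sample weights and 0 to 1 without single mice, Ctsh being called without injured mutant mouse 2 or injured wild-type mouse 3. The subsets hold fewer mice, and the cause of the other changes was not tested. Of all tested genes 3.16% to 39.4% were called for injury in mutants. With the replicate block 3 cathepsins were called there, and Ctsh, at 0.33 (limma adjusted p 0.0627), lost its call. Same-numbered mice are different animals, and the correlations of their deviations from group means ran from -0.217 to 0.151, so the numbers do not pair them.

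Signs turned only in changes that did not pass. With median-of-ratios scaling, Ctsz was 0.0100 for genotype in intact discs, Ctsa was 0.024 for genotype in injured discs, Ctsa was 0.024 for injury by genotype interaction. With sample weights, Ctsa was -0.063 for injury in mutant discs, Ctsz was 0.013 for genotype in intact discs. With the replicate block, Ctsa was 0.025 for genotype in injured discs, Ctsa was 0.068 for injury by genotype interaction. The prefix covariate marks mutants named A8, so genotype changes under it set the level of mutants named M against the wild type. With the prefix as covariate, Ctsd was -0.082 and Ctss was -0.0103 for genotype in intact discs, Ctsb was -0.14 for genotype in injured discs. With only mutants named M, Ctsa was -0.091 for injury in mutant discs, Ctsb was -0.29 and Ctsd was -0.16 for genotype in injured discs, Ctsb was -0.13 and Ctsd was -0.31 for injury by genotype interaction. With only mutants named A8, Ctsa was 0.0062 and Ctsz was 0.053 for genotype in intact discs, Ctsa was 0.15 for genotype in injured discs, Ctsa was 0.14 and Ctsh was -0.022 for injury by genotype interaction. Without single mice, for injury in wild-type discs, Ctsa ran from -0.019 to 0.25. For injury in mutant discs, Ctsa ran from -0.15 to 0.16. For genotype in intact discs, Ctsa ran from -0.051 to 0.019, Ctsz ran from -0.075 to 0.11. For genotype in injured discs, Ctsa ran from -0.29 to 0.056, Ctsb ran from -0.23 to 0.39, Ctsd ran from -0.15 to 0.37. For injury by genotype interaction, Ctsa ran from -0.27 to 0.067, Ctsb ran from -0.14 to 0.47, Ctsd ran from -0.24 to 0.28, Ctss ran from -0.10 to 1.55. 

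Depth limits Ctss most, which rested on 17 to 96 implied reads in intact discs.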
